A study of Mus musculus with 4 samples.

Results

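Ly49-positive CD8 T cells of the mouse liver are described here, cells that carry T cell receptor and CD8 transcripts together with receptors of the Ly49 family, which are best known from natural killer (NK) cells. They were chosen among CD45-positive liver cells by their counts of unique molecular identifiers (UMIs, 1 per captured molecule). Barcodes with 500 UMIs or more were kept if they showed no fewer than 250 genes and no more than 10% of UMIs from mitochondrial genes. A member then had Cd3e plus Cd3g of at least 2 UMIs, Cd8a plus Cd8b1 of at least 1, no Cd4 UMI, Cd79a plus Cd79b of at most 1, Ccl5 of at least 2, Trdc of at most 1, and Klra1 plus Klra6 plus Klra7 of at least 1. The rule found 369 members among 32876 kept barcodes, which was 1.12% (exact 95% interval 1.01% to 1.24%). The main cells they were set against were 1666 CD8 T cells that met every other criterion and had no Klra1, Klra6 or Klra7 UMI, called Ly49-negative here. Measured counts of these genes thus chose the members, and their levels are given as a description with no test.

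The 4 libraries each held sorted CD45-positive liver cells of 5 pooled mice after 1 week of tamoxifen, which all groups received. The groups were GS(+/delta)Hep with 1 library, URI(+/delta)Hep with 1 library and WT with 2 libraries, called GS, URI and WT below. GS is glutamine synthetase and URI a prefoldin-like protein, named in the series title as the genes knocked out. The labels write each genotype with 1 deleted allele, and the Cre driver, strain, sex and age were not given in the sources used here. RNA was read with a probe panel on fixed cells, so a gene's count is the count of its ligated probes. Because each library pools its mice, no value below has an error between animals.

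Ly49 receptors are lectin-like receptors on the surface of mouse NK cells, most of which bind classical MHC class I molecules. Inhibitory members carry an immunoreceptor tyrosine-based inhibitory motif (ITIM) in the cytoplasmic tail, which recruits phosphatases, while activating members lack it and signal through the adaptor encoded by Tyrobp. A minority of mouse CD8 T cells also carries Ly49 receptors, and such cells have been described both among memory-like cells that arise without foreign antigen and as suppressors that depend on Helios, the transcription factor encoded by Ikzf2.

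The start of the coding sequence of each receptor is shown because the cytoplasmic tail with its ITIM lies there, and this part separates the receptors that chose the cells from activating relatives. The sequences were read from the mm10 genome with GENCODE M21 annotation, where all are on chromosome 6, minus strand, within 1 coding exon each. Capitals mark the codons of the ITIM (by name, not spelled out). Klra1 (Ly49A) is at chr6:130380603-130380662, exon 4 of 9, Klra6 (Ly49F) at chr6:130025160-130025219, exon 2 of 8, and Klra7 (Ly49G) at chr6:130231558-130231617, exon 1 of 8. Klra4 (Ly49D) at chr6:130065243-130065302, exon 2 of 7, and Klra8 (Ly49H) at chr6:130128101-130128160, exon 2 of 8, are activating receptors shown for contrast.
Klra1: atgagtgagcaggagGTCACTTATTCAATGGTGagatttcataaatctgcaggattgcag
Klra6: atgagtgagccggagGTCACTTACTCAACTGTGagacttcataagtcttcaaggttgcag
Klra7: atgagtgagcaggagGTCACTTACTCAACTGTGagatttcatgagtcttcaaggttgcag
Klra4: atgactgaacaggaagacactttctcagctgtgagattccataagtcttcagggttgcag
Klra8: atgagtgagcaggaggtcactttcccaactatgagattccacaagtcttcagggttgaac
The motif began at codon 6 in Klra1, Klra6 and Klra7, and none was found in these 60 bases of Klra4 or Klra8. Klra3, Klra5 and Klra9 held it at codon 6 as well. Of 21612 coding genes, 325 matched the ITIM pattern in the first 60 coding bases, which was 1.504%. The search took in every kind of protein, so a match alone does not make a working ITIM. The family is alike in sequence: the coding sequences of Klra1 and Klra6 were 81.4% identical, those of Klra1 and Klra7 82.7%, those of Klra6 and Klra7 79.0%, and those of Klra6 and Klra5 91.9%. Levels of single family members are therefore uncertain to the extent that a probe of one receptor also captures another, which was not tested.

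The libraries held 39451266 UMIs for GS, 51920505 for URI, 37783065 for WT replicate 1 and 24041049 for WT replicate 2, with a median per kept barcode of 4448, 4973, 3763 and 2659. WT replicate 2 was thus the shallowest, and it gave 17 members, against 146 in GS, 95 in URI and 111 in WT replicate 1. No full barcode was shared between libraries. The first 16 bases of a barcode recurred between pairs of libraries, for 1480 to 2076 kept barcodes a pair, and 1 multiplexing tag of 8 bases set each library apart. In the members, the summed Y-linked genes stood at 331 CPM (UMIs summed over the cells of a set and scaled to the same total in each library) in GS, 426 in URI, 11.0 in WT replicate 1 and 179.7 in WT replicate 2, which sets WT replicate 1 apart from the others.

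The 3 receptors of the rule were not used evenly. Klra6 was detected in 234 of the 369 members (63.4%), Klra7 in 204 (55.3%) and Klra1 in 94 (25.5%). A single receptor was seen in most: 113 members had Klra6 only, 84 Klra7 only and 37 Klra1 only. Of the 135 members with at least 2 receptors (36.6%), 78 had Klra6 and Klra7, 15 Klra1 and Klra6, 14 Klra1 and Klra7, and 28 all of them. Klra6 averaged 268 ± 77.0 CPM (SD, n = 4 libraries) in members, against 31.2 ± 14.3 in gamma-delta T cells and 24.8 ± 3.28 in NK cells. Klra7 averaged 180.4 ± 59.1 in members, against 40.4 ± 9.72 in gamma-delta T cells and 151 ± 44.2 in NK cells. The members were chosen by these genes and the other sets were not, so nothing is read from the differences.

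Near the thresholds, 132 members had a summed Ly49 count of 1, 109 of 2 or 3, and 128 of at least 4, with a highest count of 23. Few cells lay near the Ccl5 threshold: 11 members had exactly 2 Ccl5 UMIs, and of the cells that met all else, 2 had 1 Ccl5 UMI and 12 had none. The median Ccl5 count was 46 UMIs in GS members, 61 in URI, 47 in WT replicate 1 and 41 in WT replicate 2. In Ly49-negative cells it was 25, 19.5, 20 and 14, so the 2 sets were not matched for Ccl5. The part of this in the differences below was not tested. Trdc stood at 1 UMI in 25 members, and 60 cells that met all else had 2 or more. Ly49 UMIs can also come from free RNA. A cell with any Klra1, Klra6 or Klra7 UMI was rare among B cells, which should lack these genes, with 0.931% in GS, 2.17% in URI, 0.754% in WT replicate 1 and 0.430% in WT replicate 2. CD8 T cells with under 2 Ccl5 UMIs gave 0.538%, 0.678%, 0.396% and 0.220% in the same order, at median depths of 5161, 6075.5, 4586 and 3466 UMIs, against 3738, 4194, 2832 and 2146 in B cells. Among Ccl5-positive CD8 T cells the share was 21.1%, 18.2%, 18.0% and 8.42%, at median depths of 5091.5, 7082, 4863 and 4108.5 UMIs. Each was above the background of its own library.

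**Figure D1:**
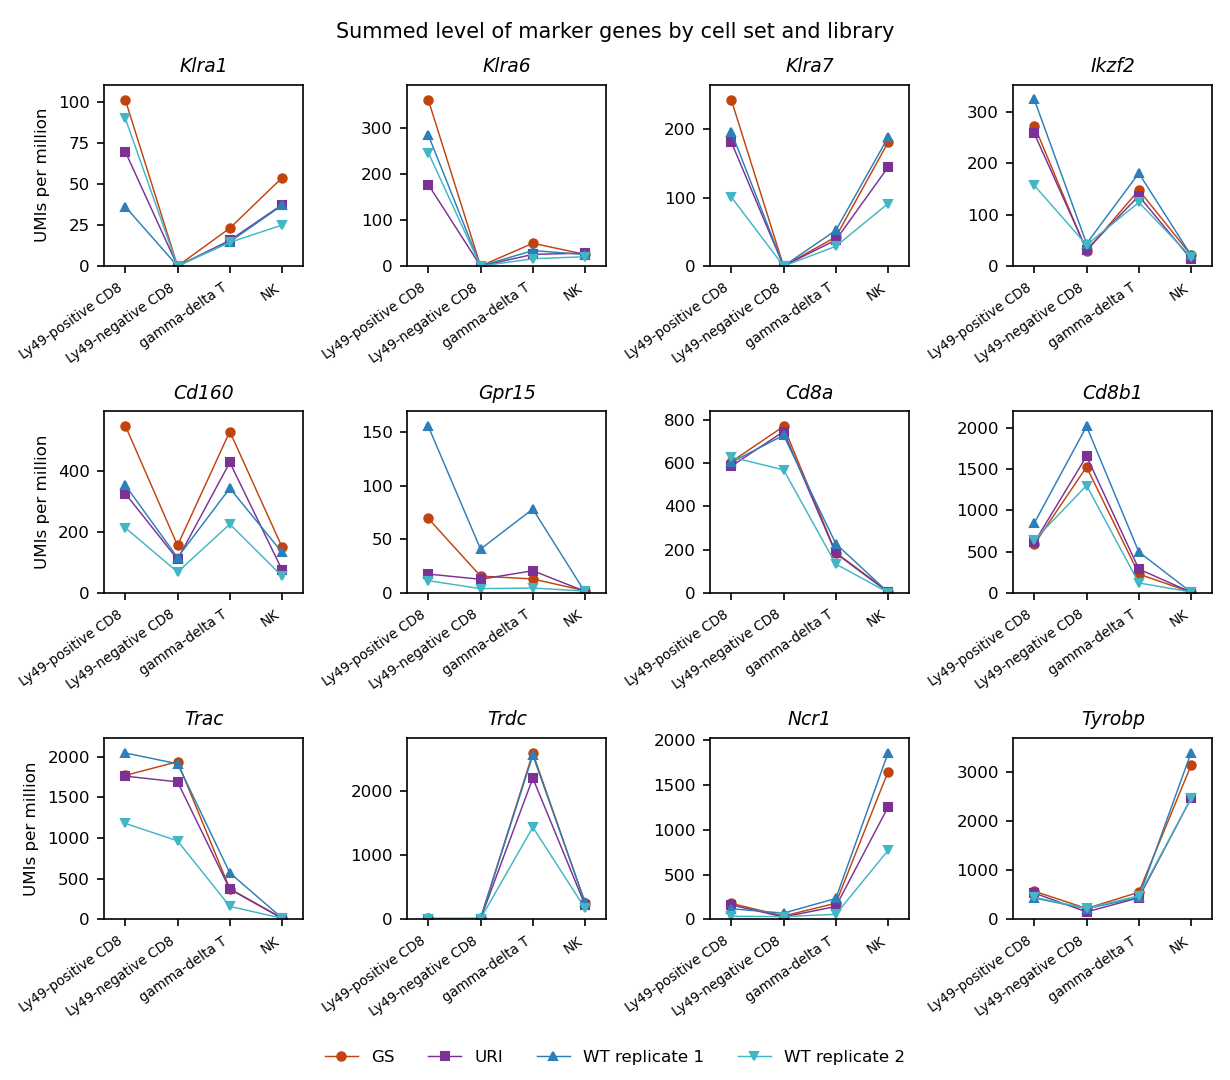
CPM of 12 genes in Ly49-positive CD8 T cells, Ly49-negative Ccl5-positive CD8 T cells, gamma-delta T cells and NK cells, with 1 line per library joining its 4 cell sets. Ikzf2 is highest in the Ly49-positive cells of every library, Trac stays at the level of the other CD8 T cells, Trdc is low in both CD8 sets, where the selection capped it, and Ncr1 is low next to NK cells.

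The markers listed for the cells are given as a description, which is no independent check of the label. Klra6 and Klra7 served the rule, and the others were listed with earlier results of these data known. Ikzf2 (Helios, chr1:69531214-69687245, minus strand) had 274 CPM in GS members, 258 in URI, 325 in WT replicate 1 and 157 in WT replicate 2, against 29.1, 32.0, 43.8 and 41.3 in Ly49-negative cells. The members were higher in each library. Ikzf2 was left out of the test below, where 312 of 8432 genes passed at 20 CPM or more with the same direction in 4 libraries. Gamma-delta T cells had 148, 137, 181 and 124, below the members of the same library in each case, though their range overlapped that of the members. Thinned to 1000 UMIs a cell, Ikzf2 was seen in 21.4%, 15.1%, 20% and 23.5% of members, against 2.63%, 3.39%, 5.66% and 2.72% of Ly49-negative cells and at most 0.381% of B cells. Without thinning the shares were 50%, 61.1%, 58.6% and 35.3% of members. Cd160, a receptor shared by NK cells and intraepithelial T cells (chr3:96798763-96829351, minus strand), had 549, 326, 353 and 213 CPM in members, against 155, 109, 115 and 67.6 in Ly49-negative cells. Gpr15, a homing receptor for the large intestine, was uneven, with 69.3 in GS, 17.4 in URI, 155 in WT replicate 1 and 11.2 in WT replicate 2, against 15.5, 12.5, 40.7 and 3.75 in Ly49-negative cells. Its UMIs came from 30, 9, 40 and 1 members, and at such levels a cell can express the gene and show no UMI.

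Trac, the constant part of the T cell receptor alpha chain, averaged 1689 ± 365 CPM, against 1627 ± 455 in Ly49-negative cells, 369 ± 168 in gamma-delta T cells and 13.0 ± 1.68 in NK cells. Of the gamma-delta genes, Sox13 had no UMI in any member, against 241 in gamma-delta T cells. Of the 6 names on that list, only Trdc, Trdv4 and Sox13 were found in the panel. Trdc, which the selection capped, was the one with a UMI in members, so the sum is no check. The gamma chain constant genes stand in the panel under Tcrg names and were not counted in that sum. They did have UMIs in members, with Tcrg-C2 at 133, 69.6, 100.4 and 33.7 CPM in GS, URI, WT replicate 1 and WT replicate 2. Markers of other cells were present to differing degrees. The summed NK list of 6 genes was at 663 to 1190 CPM, against 410.4 to 542 in Ly49-negative cells and 5168 to 8076 in NK cells. The B cell list was at 29.8 to 101 in members, against 61.7 to 70.1 in Ly49-negative cells. The monocyte and macrophage list was at 14.8 to 231, against 128 to 230.0, with Clec4f and C1qa at 0 in members. The neutrophil list was at 763 in GS members, 4279 in URI, 1042 in WT replicate 1 and 213 in WT replicate 2, against 2343, 1827, 1398 and 667 in Ly49-negative cells, so in URI it was higher in the members. The part of these transcripts in the results was not tested. Doublets, as called by Scrublet, made up 10.8% of members (40 cells) and 5.34% of Ly49-negative cells (89).

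The share of members in each library sets the genotypes side by side without a test per gene. It still depends on the genes and thresholds of the rule and on depth. Among Ccl5-positive CD8 T cells, members were 21.1% in GS (146 of 692, exact interval 18.1% to 24.3%) and 18.2% in URI (95 of 523, 15.0% to 21.7%). In WT they were 18.0% (111 of 618, 15.0% to 21.2%) and 8.42% (17 of 202, 4.98% to 13.1%), a mean of 13.2% ± 6.75 (SD, n = 2). URI and WT replicate 1 were alike, GS was the highest by a little, and WT replicate 2 stood apart, below the intervals of the other libraries. Of all kept barcodes, members were 1.86% in GS, 1.044% in URI, 1.31% in WT replicate 1 and 0.228% in WT replicate 2, so URI lay between the WT libraries. With 1 library in GS and in URI, the smallest p a permutation can give is 0.333, and no difference between genotypes can be shown. The intervals cover counting error only. The rule was also applied again to cells thinned to 1000 UMIs. Only cells already in a set chosen at full depth were thinned, gamma-delta T cells included, so the selection was not redone on all barcodes. The shares among Ccl5-positive CD8 T cells were then 11.6%, 4.47%, 7.04% and 0% of 45 cells in WT replicate 2. That 0% allows up to 7.87% by the exact interval.

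**Figure D2:**
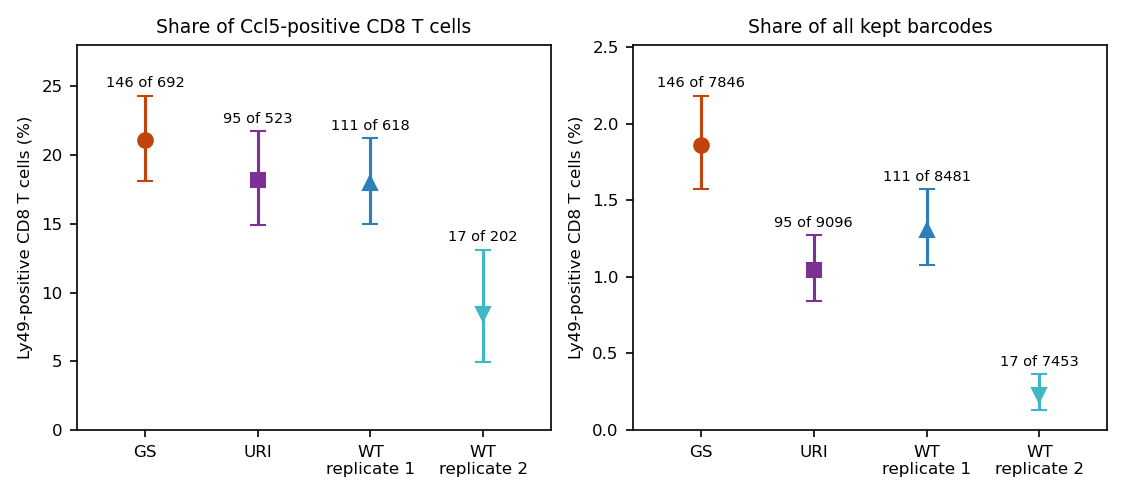
Share of Ly49-positive cells among Ccl5-positive CD8 T cells by library, in percent, with exact 95% binomial intervals that cover counting error only. GS, URI and WT replicate 1 lie between 18.0% and 21.1%, and WT replicate 2 is at 8.42%.

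To ask what else distinguished the Ly49-positive cells, UMIs were summed per library over the members and over the Ly49-negative cells, and the sums were compared with edgeR's quasi-likelihood test, with the library as a block and Benjamini-Hochberg adjustment. The genes of the rule and the listed markers were left out of the test. Of 8432 genes tested, 238 were higher in the members (2.82%) and 151 lower (1.79%), together 4.61%, at an adjusted p under 0.05. The libraries are pools of mice and include all genotypes. The p-values rest on a spread that the fit partly shares between genes. They therefore do not measure only how evenly a difference recurs over the 4 libraries. The SE, given after ± for a log2 difference, is that difference divided by the square root of the test's F statistic. It is not the spread between libraries. Without WT replicate 2, which had 17 members, 344 genes passed, 301 of them shared. Without GS replicate 1 it was 194 genes (183 shared), and without WT replicate 1 it was 245 (227 shared). With doublets left out on both sides 428 genes passed, 341 of them shared. A Ly49-negative cell here has no UMI of the 3 receptors, which at this depth does not show that it lacks the protein. Of the 30 genes named by size, Sult2b1 had the largest rise and Gzmk the largest fall. Sult2b1 passed the filter on low counts through the members and Gzmk through the Ly49-negative cells, so their rank is a description.

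Xcl1, the chemokine that attracts cross-presenting dendritic cells (chr1:164931644-164935527, minus strand), was the gene with the smallest p. It had 820.2 CPM in GS members, 532 in URI, 425 in WT replicate 1 and 651 in WT replicate 2, against 192, 122, 101 and 144 in Ly49-negative cells. No value of the members came near those of the Ly49-negative cells. The log2 difference was 2.12 ± 0.08 (SE) with an adjusted p of 3.59e-12, and thinned to 1000 UMIs the gene was seen in 40%, 37.6%, 23.6% and 17.6% of members, against 11.3%, 9.20%, 7.76% and 9.24% of Ly49-negative cells. In B cells it was seen in 0.571% to 1.33%.

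Spry2, a feedback inhibitor of receptor tyrosine kinase signalling (chr14:105891947-105896819, minus strand), had 227, 359, 226 and 393 CPM in members of GS, URI, WT replicate 1 and WT replicate 2, against 48.9, 49.3, 32.4 and 96.4 in Ly49-negative cells. Its log2 difference was 2.55 ± 0.13 (adjusted p = 6.64e-10), and it passed the test under each alternative tried. Sult2b1, a cholesterol sulfotransferase, was higher by 2.61 ± 0.40 on the log2 scale. No p is given, since it passed the filter on low counts through the members. Its level was low and rested most on WT replicate 2, with 29.5, 18.6, 22.0 and 146 in members, against 10.1, 3.47, 1.90 and 7.51 in Ly49-negative cells. Clnk, an adaptor of the SLP-76 family in immunoreceptor signalling, was higher by 2.47 ± 0.29 (adjusted p = 2.21e-05). Myo1e, a class I myosin, was higher by 2.38 ± 0.26 and Kifc3, a kinesin, by 2.29 ± 0.22. Arap3, a GTPase-activating protein, was higher by 2.11 ± 0.25, Chn2, another such protein, by 2.01 ± 0.16, and Aoah, a lipase that inactivates lipopolysaccharide, by 2.05 ± 0.24. Emid1 was higher by 1.98 ± 0.25. All these named genes were higher in 4 of 4 libraries.

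**Figure D3:**
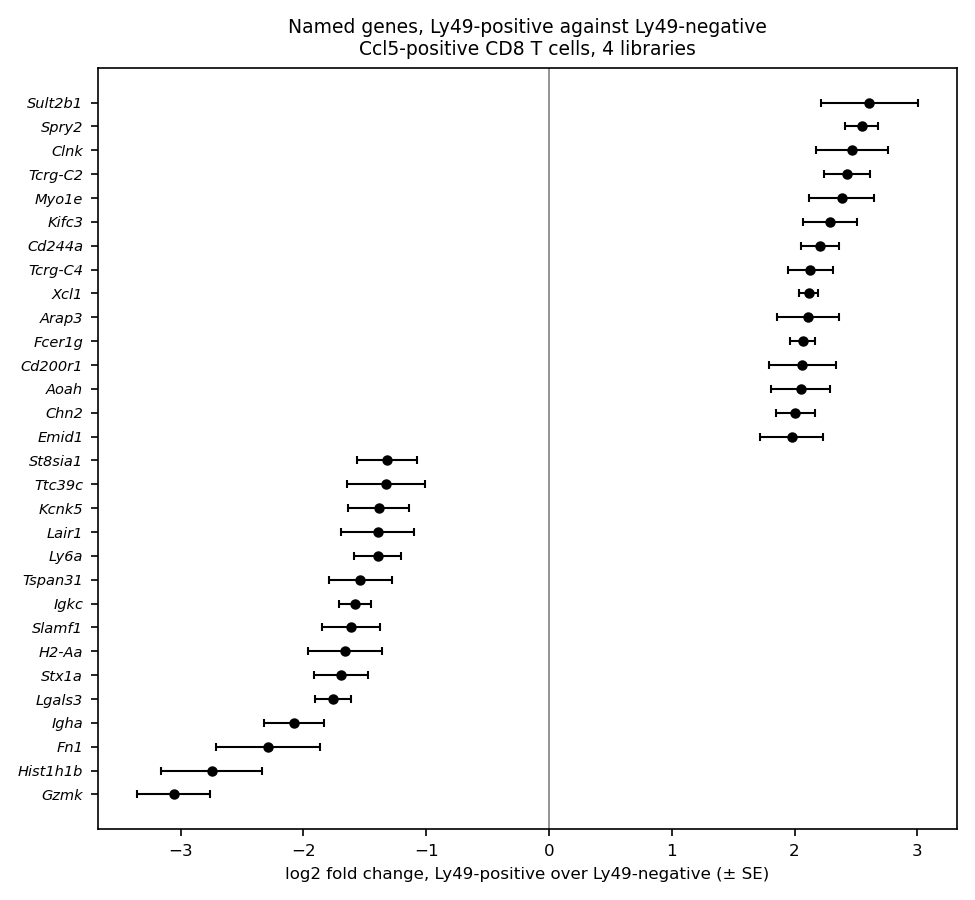
Log2 difference, Ly49-positive minus Ly49-negative Ccl5-positive CD8 T cells, of the 30 genes named by size. Bars are the standard error from the fit, which is not the spread between libraries. Sult2b1, Spry2 and Clnk lead the rises and Gzmk, at -3.06, leads the falls.

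Among receptors shared with NK cells, 10 of 17 tested rose and 1 fell, with a median log2 difference of 0.98, against -0.01 over all genes tested. Over all genes 2.82% rose and 1.79% fell, the background of each list count against Ly49-negative cells. Cd244a, a receptor of the SLAM family that signals through SAP adaptors (chr1:171559193-171609746, plus strand), had 277, 159, 139.6 and 78.6 CPM in members, against 51.8, 27.4, 40.4 and 37.5 in Ly49-negative cells. Its log2 difference was 2.21 ± 0.15 (adjusted p = 3.92e-08). Klrd1 (CD94), the partner chain of the NKG2 receptors, averaged 495 ± 181 in members and 259 ± 82.1 in Ly49-negative cells, a difference of 0.95 ± 0.08. Klre1, Klrc2, Klrb1c (NK1.1) and Ncr1 (NKp46) rose by 1.83 ± 0.18, 1.75 ± 0.21, 1.70 ± 0.16 and 1.83 ± 0.24. Ncr1 nevertheless stayed at 122 ± 64.1 in members, against 40.2 ± 19.4 in Ly49-negative cells, while NK cells had 1384 ± 479.5 and the barcodes under 100 UMIs, which hold free RNA, 153 ± 52.7. An Ncr1 or Klrb1c UMI was present in 37.1% of members and 16.4% of Ly49-negative cells. With such cells left out on both sides, Cd244a was at 2.00, Klrd1 at 0.97 and Klre1 at 1.79, and each passed. Klrg1, a marker of terminal effector cells, was the member of the list that fell, by 1.19 on the log2 scale (adjusted p = 0.0021), and without GS replicate 1 it stood at -0.81 (adjusted p = 0.24). Klrb1a was at 1.18 without GS replicate 1 (adjusted p = 0.13), and Klrb1b lost its call without GS replicate 1, URI replicate 1 or WT replicate 1, at 0.90, 0.90 and 1.14, and without doublets, at 0.35.

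Of the 11 Ly49 family members in the panel, 8 were not in the rule and 4 of those passed the filter on low counts. Klra4 was higher by 1.94 ± 0.27, Klra8 by 1.62 ± 0.34 and Klra9 (Ly49I) by 1.47 ± 0.34. Their levels in members were 50.6 ± 46.7, 27.9 ± 22.1 and 39.6 ± 43.4 CPM, against 13.8 ± 9.79, 10.9 ± 2.11 and 14.6 ± 4.71 in Ly49-negative cells. Klra5 (Ly49E) had 26.1, 16.2, 34.5 and 56.1 in members of GS, URI, WT replicate 1 and WT replicate 2, from 23, 13, 22 and 5 UMIs, against 7, 4, 5 and 2 UMIs in Ly49-negative cells. It is given without a test, because it passed the filter through the members, and its coding sequence is 91.9% identical to that of the selecting Klra6. The coding sequence of Klra9 is 91.7% identical to that of Klra6, and that of Klra8 86.5%. Klra4 is 88.5% identical to the selecting Klra1. A probe that captured 2 receptors would carry the selection into the differences of Klra4, Klra8 and Klra9, which was not tested. The levels of these family members were uneven between libraries. Klra9 had 92 UMIs in 36 GS members, 14 in 9 URI members, 9 in 9 members of WT replicate 1 and 2 in 2 of WT replicate 2, and without GS replicate 1 its difference was 0.57 (adjusted p = 0.75). Klra8 was at 1.11 without URI replicate 1 (adjusted p = 0.11) and at 1.44 with Trdc at 0 on both sides (adjusted p = 0.067).

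The adaptors of activating receptors were higher as well, 5 of 9 tested, with a median of 1.31. Fcer1g, the Fc receptor gamma chain (chr1:171229572-171234365, minus strand), had 817, 596, 612 and 719 CPM in members, against 157, 147, 144 and 269 in Ly49-negative cells, a difference of 2.07 ± 0.10 (adjusted p = 4.93e-10). Tyrobp, the adaptor of activating Ly49 receptors, averaged 497 ± 66.6 in members and 202 ± 34.4 in Ly49-negative cells, a difference of 1.38 ± 0.11. Cd7, a surface protein of T and NK cells, averaged 1057 ± 401 against 343 ± 30.0, a difference of 1.61 ± 0.11. Lat2, a scaffold of immunoreceptor signalling, rose by 1.67 ± 0.19 and Plcg2 by 1.31 ± 0.20. In NK cells Fcer1g and Tyrobp were at 2542 ± 56.8 and 2866 ± 474, so members lay between the Ly49-negative cells and NK cells. Both genes are also common in free RNA, at 747 ± 162 and 1233 ± 324 in barcodes under 100 UMIs. When cells with an Ncr1 or Klrb1c UMI were left out on both sides, Fcer1g, Cd7 and Lat2 kept their calls, whereas Tyrobp was at 0.44 (adjusted p = 0.36) and Plcg2 at 0.93 (adjusted p = 0.19).

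Effector genes split. Of 15 cytotoxic genes tested, 5 were higher and 2 lower, with a median of 0.37. Gzmk (chr13:113171608-113225908, minus strand), a granzyme of memory-like and exhausted CD8 T cells, had 36.4, 6.21, 0 and 0 CPM in members of GS, URI, WT replicate 1 and WT replicate 2, against 173, 94.5, 99.7 and 50.1 in Ly49-negative cells. Its UMIs came from 10 members in GS and 1 in URI, and from 132, 62, 69 and 16 Ly49-negative cells. The log2 difference was -3.06 ± 0.30. No p is given, since Gzmk passed the filter on low counts through the Ly49-negative cells. Gzmm was also lower, by -1.24 ± 0.17 (adjusted p = 0.000147), in 3 of 4 libraries. Gzmb (chr14:56258838-56262260, minus strand), the main granzyme of killer cells, was higher, with 1251, 770.4, 855 and 2369 CPM, against 669, 371, 503 and 476. The difference was 1.19 ± 0.15 (adjusted p = 5.57e-05), and without cells that had an Ncr1 or Klrb1c UMI it was 0.10 (adjusted p = 0.94). Perforin, encoded by Prf1, averaged 180.1 ± 81.7 in members and 177 ± 24.3 in Ly49-negative cells and did not pass (log2 difference 0.14, adjusted p = 0.78). Its direction turned with the cells included: it was at -0.77 without cells that had an Ncr1 or Klrb1c UMI (adjusted p = 0.005), at -0.42 without doublets (adjusted p = 0.046) and at -0.15 without URI replicate 1.

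Of 9 cytokine genes tested, 4 were higher: Xcl1, Ccl3 by 1.00 ± 0.11, Ifng by 0.89 ± 0.12 and Ccl4 by 0.73 ± 0.10. Ifng averaged 861 ± 513 CPM in members and 408 ± 140.4 in Ly49-negative cells, and the gap was widest in WT replicate 2, with 1493 against 501. Ccl3, a chemokine that attracts monocytes and T cells, averaged 864 ± 581 against 383 ± 156. Without cells that had an Ncr1 or Klrb1c UMI, Xcl1 kept its call, while Ifng was at 0.51 (adjusted p = 0.095), Ccl3 at 0.32 (adjusted p = 0.70) and Ccl4 at -0.13 (adjusted p = 0.95). Tnf averaged 119 ± 55.2 and 89.8 ± 26.9 and did not pass (adjusted p = 0.51).

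Genes tied to staying in tissue and to leaving it moved in opposite directions in part. Of 15 residency genes tested, 5 were higher and 2 lower. Zfp683 (Hobit), a transcription factor of resident lymphocytes, had 470.3, 196, 265 and 314 CPM in members, against 198, 105, 92.9 and 176 in Ly49-negative cells, a difference of 1.19 ± 0.10 (adjusted p = 5.52e-07). Rgs1, a regulator that dampens chemokine receptor signals, averaged 719 ± 164 against 323 ± 87.4, a difference of 1.18 ± 0.08. Itga1, the CD49a integrin chain, rose by 1.48 ± 0.17, Rgs2 by 0.67 ± 0.12 and Cd69 by 0.46 ± 0.10. The 2 that fell were Itgae (CD103), by 0.99 on the log2 scale, and Prdm1 (Blimp-1), by 0.94. Itgae lost its call without GS replicate 1, URI replicate 1 or WT replicate 2, at -0.73, -0.79 and -0.96, and Prdm1 did so without any 1 library, at -0.86, -1.03, -0.85 and -0.997 in the order GS, URI, WT replicate 1 and WT replicate 2. Without cells that had an Ncr1 or Klrb1c UMI, Itga1 was at 0.94 (adjusted p = 0.18) and Rgs2 at 0.31 (adjusted p = 0.54).

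Of 9 genes of recirculation, 4 were lower and the rest did not pass. Ccr7 (chr11:99144196-99155077, minus strand), which guides T cells to lymph nodes, had 166, 157, 339 and 236 CPM in members, against 336, 449.9, 493 and 474 in Ly49-negative cells, a difference of -0.99 ± 0.12 (adjusted p = 2.66e-05). The sphingosine phosphate receptors S1pr1, S1pr4 and S1pr5, which serve exit from tissue, were lower by -0.33 ± 0.09, -0.32 ± 0.08 and -0.92 ± 0.26. Those 3 calls depended on single libraries: S1pr1 and S1pr4 lost theirs without GS replicate 1, at -0.38 and -0.31, without URI replicate 1, at -0.21 and -0.27, or without WT replicate 2, at -0.31 and -0.27. S1pr5 lost its call without GS replicate 1, WT replicate 1 or WT replicate 2, at -0.64, -1.01 and -0.80. Of 9 chemokine receptors, Ccr7, Ccr2 at -0.89 ± 0.14 and Gpr183 at -0.41 ± 0.11 were lower. Gpr183 lost its call without GS replicate 1, WT replicate 1 or WT replicate 2, at -0.37, -0.36 and -0.41, and Ccr2 in cells thinned to 1000 UMIs, at -1.23 (adjusted p = 0.06).

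Of 18 cytokine receptors tested, 3 were higher and 4 lower, with a median log2 difference of 0.08. Il2rb, the shared beta chain of the interleukin-2 and interleukin-15 receptors, had 2554, 2674, 2399 and 1898 CPM in members, against 1529, 1448, 1551 and 1383 in Ly49-negative cells, a difference of 0.70 ± 0.07 (adjusted p = 3.29e-06). Il12rb2, a chain of the interleukin-12 receptor, rose by 1.36 ± 0.17 (adjusted p = 4.21e-05). Ifngr1, a chain of the interferon gamma receptor, was higher by 0.29 ± 0.07 (adjusted p = 0.0201), and lost its call without GS replicate 1 (0.30), URI replicate 1 (0.24) or WT replicate 1 (0.32). Il6ra, the interleukin-6 receptor, averaged 71.5 ± 22.5 in members and 155 ± 25.2 in Ly49-negative cells, a difference of -1.23 ± 0.13. Il10ra and Il27ra were lower by -0.65 ± 0.13 and -0.47 ± 0.10. Il7r, the interleukin-7 receptor, was lower by -0.55 ± 0.12, though in 3 of 4 libraries only, and its call was lost without GS replicate 1, at -0.55 (adjusted p = 0.11), or URI replicate 1, at -0.32. Il27ra was at -0.36 without GS replicate 1 (adjusted p = 0.18).

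These cells were also set against lists for the populations in which Ly49-positive CD8 T cells have been described. Of 12 genes of virtual memory cells, Il2rb and Tbx21 were higher and Il7r lower. Eomes, the transcription factor most often used for that state, averaged 129.8 ± 31.9 CPM in members and 162 ± 49.7 in Ly49-negative cells and did not pass (log2 difference -0.36, adjusted p = 0.13). Of 12 tested genes of regulatory CD8 T cells, Il2rb, Fgl2, Tnfrsf9 and Tnfrsf18 were higher and Ctla4 and Nt5e lower. Fgl2, a secreted suppressive protein, averaged 321 ± 98.7 against 140.4 ± 50.7, a difference of 1.21 ± 0.09 (adjusted p = 1.61e-07). Tnfrsf9, a costimulatory receptor, rose by 1.42 ± 0.24, and by 1.34 without cells that had an Ncr1 or Klrb1c UMI (adjusted p = 0.056). Ctla4, an inhibitory receptor of regulatory T cells, was lower, at 12.1 ± 9.52 against 42.0 ± 12.5 (difference -1.25, adjusted p = 0.0119), and it lost its call without WT replicate 1, at -1.12, and without cells that had an Ncr1 or Klrb1c UMI, at -0.79. Nt5e, at -0.51, lost its call without any 1 library, at -0.52, -0.41, -0.57 and -0.51 in the order GS, URI, WT replicate 1 and WT replicate 2. Tbx21, at 0.39 ± 0.09, lost its call without GS replicate 1 (0.44), URI replicate 1 (0.29) or WT replicate 1 (0.38), and Tnfrsf18, at 0.52 ± 0.11, without WT replicate 1 (0.46).

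Among 33 transcription factors of lymphocyte lineages, 8 were higher and 6 lower. Besides Zfp683, Irf8 rose by 1.03 ± 0.16 and Nfil3, needed for NK cell development, by 0.91 ± 0.14. Bcl11b, which maintains T cell identity, averaged 244 ± 31.1 CPM in members and 419 ± 77.1 in Ly49-negative cells, a difference of -0.68 ± 0.10 (adjusted p = 0.000252). Rora was lower by -0.98 ± 0.18. Zeb2, a factor of terminal effector cells, was lower by -0.87 ± 0.17, but without GS replicate 1 it was at -0.53 (adjusted p = 0.18). Zbtb16 (PLZF), which defines NKT cells and other innate-like T cells, stood at 43.0 ± 15.7 in members, against 55.0 ± 17.4 in Ly49-negative cells and 207 ± 71.3 in gamma-delta T cells. Without cells that had an Ncr1 or Klrb1c UMI, Irf8 was at 0.45 (adjusted p = 0.69), Nfil3 at 0.68 (adjusted p = 0.095) and Rora at -0.82 (adjusted p = 0.18).

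Of 17 genes of T cell receptor signalling tested, 7 were lower and 1 higher, against 1.79% lower and 2.82% higher over all genes. Themis, which sets the T cell receptor response in the thymus, had 217, 171, 235 and 78.6 CPM in members, against 437, 369, 415 and 247 in Ly49-negative cells, a difference of -0.996 ± 0.09 (adjusted p = 9.00e-07). Cd5 and Cd6, receptors that restrain the T cell receptor, were lower by -0.56 ± 0.08 and -0.95 ± 0.11, and the adaptor Lat by -0.74 ± 0.08. Thy1 and Cd28 were lower by -0.41 ± 0.08 and -0.44 ± 0.09, and the kinase Zap70 was higher by 0.31. These 3 calls depended on libraries: Cd28 was at -0.32 without GS replicate 1, Thy1 and Cd28 were at -0.30 and -0.40 without WT replicate 1, and Zap70 was at 0.36, 0.31 and 0.31 without GS replicate 1, URI replicate 1 or WT replicate 1, none of which passed. Without cells that had an Ncr1 or Klrb1c UMI, Cd5 was at -0.23 (adjusted p = 0.48) and Thy1 at -0.38 (adjusted p = 0.077).

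Transcripts of the gamma chain locus were higher in the members. All 4 such genes that were tested rose: Tcrg-C2 by 2.43 ± 0.19, Tcrg-C4 by 2.13 ± 0.18, Tcrg-V1 by 2.68 ± 0.38 and Tcrg-C1 by 1.61 ± 0.31. Tcrg-C2 had 133, 69.6, 100.4 and 33.7 CPM in members, against 23.4, 10.1, 23.99 and 6.26 in Ly49-negative cells, while gamma-delta T cells averaged 190.4 ± 77.7. Tcrg-C1 was at 1.52 without WT replicate 1 (adjusted p = 0.069). Restricting both sides to cells with no Trdc UMI kept all 4 calls.

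The beta chain repertoire stayed broad. A segment was assigned to a cell with at least 2 Trbv UMIs of which at least 80% lay on 1 segment. Among members, 207 cells were assigned over 18 segments, and the most used, Trbv12-2, took 42 cells (20.3%), followed by Trbv3 with 25 (12.1%) and Trbv29 with 18 (8.70%). Among Ly49-negative cells, 847 were assigned over 19 segments, with Trbv12-2 in 139 (16.4%), Trbv19 in 100 (11.8%) and Trbv29 in 77 (9.09%). In the sums, Trbv19 was lower in members, at 66.2 ± 14.0 CPM against 153 ± 39.8 (log2 difference -1.27 ± 0.15, adjusted p = 2.41e-05). Trbv3 and Trbv4 were higher by 0.66 and 0.76 and Trbv14 lower by -0.83, and each of these 3 lost its call without at least 1 library: Trbv3 was at 0.61 and 0.55 without GS replicate 1 or WT replicate 1, Trbv4 at 0.33 and 0.72 without URI replicate 1 or WT replicate 2, and Trbv14 at -0.71, -0.72 and -0.71 without GS replicate 1, WT replicate 1 or WT replicate 2. No UMI was counted on any of the 128 Trav genes listed, so alpha chains were not analysed here.

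Several of the largest falls were genes of other cells. Igkc and Igha, immunoglobulin chains of plasma cells, were lower by -1.58 ± 0.13 and -2.08 ± 0.24, H2-Aa, an MHC class II chain, by -1.66 ± 0.30, and Fn1, fibronectin, by -2.29 ± 0.42. Igkc had 54.5, 22.4, 245 and 22.5 CPM in members and 117, 74.7, 843 and 48.8 in Ly49-negative cells, against 2455, 2163, 3560.3 and 1462.5 in barcodes under 100 UMIs. The part of free RNA in these differences was not tested. Fn1 was at -1.44 without GS replicate 1 (adjusted p = 0.10). Falls outside those cells included Lgals3 (galectin-3) by -1.76 ± 0.15, the SLAM receptor Slamf1 by -1.62 ± 0.24, Ly6a (Sca-1) by -1.40 ± 0.19, Stx1a (syntaxin) by -1.69 ± 0.22, Tspan31 by -1.54 ± 0.25, St8sia1, a sialyltransferase, by -1.32 ± 0.24, and Hist1h1b, a linker histone of dividing cells, by -2.75 ± 0.41. By DESeq2, Hist1h1b and Igha did not pass, at -3.78 (adjusted p = 0.19) and -1.90 (adjusted p = 0.16). Lair1, Kcnk5 and Ttc39c were lower by -1.40, -1.39 and -1.33. Lair1 lost its call without GS replicate 1 or WT replicate 1, at -1.49 and -1.27, Kcnk5 without GS replicate 1, at -1.31, and Ttc39c without WT replicate 1, at -1.004.

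Many of these genes followed the amount of Ly49 transcript. With the 4 libraries pooled, Xcl1 was at 139 CPM in cells with a Ly49 sum of 0, 263 at 1, 523 at 2 to 3 and 974 at 4 or more. Cd160 was at 121, 228, 345 and 613 and Spry2 at 48.4, 161, 242 and 401 over the same steps. Cd8b1 went the other way, with 1692, 972, 690.2 and 395, as did Ccr7, with 429, 293, 202 and 152. Ikzf2 differed most between the first and the second step, with 35.3, 239, 246 and 336. Median depth moved with the same steps, at 5020, 4953.5, 6355 and 6377 UMIs a cell, and doublets were 89 of 1666, 16 of 132, 15 of 109 and 9 of 128 cells. Because the steps were set by the receptors that chose the cells, these values are a description with no test.

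**Figure D4:**
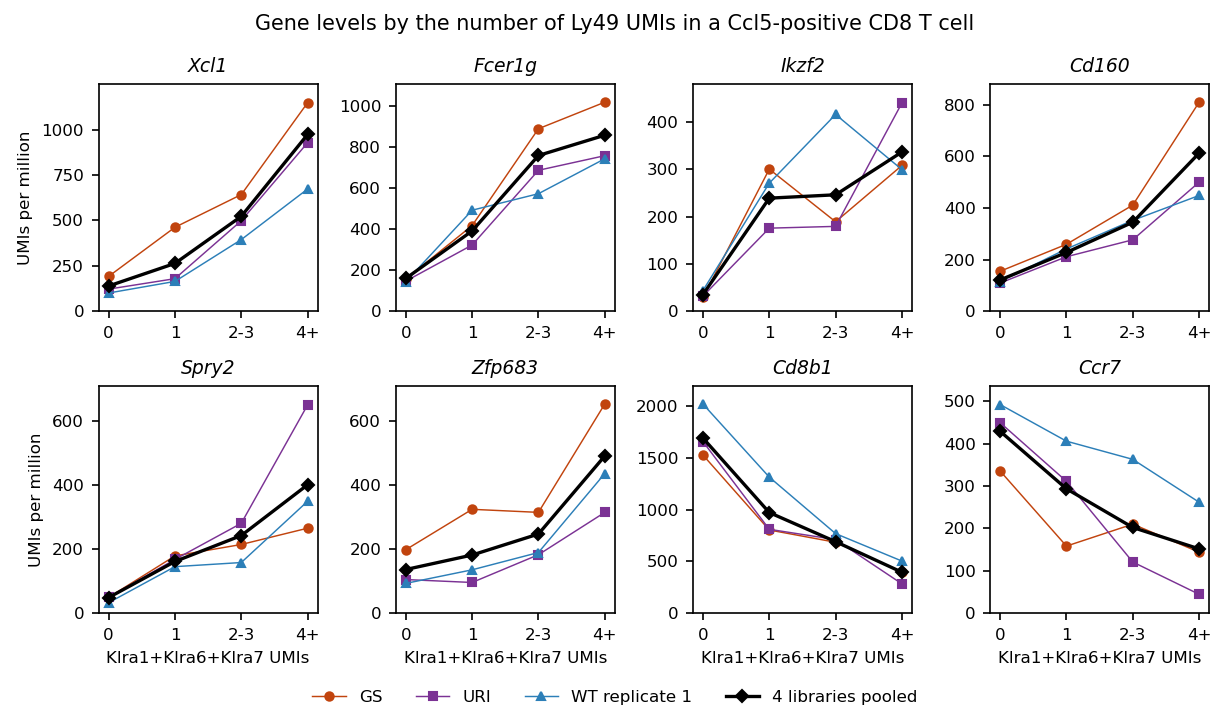
CPM of 8 genes by the summed Klra1, Klra6 and Klra7 count of the cell (0, 1, 2 to 3, 4 or more), for GS, URI and WT replicate 1 and for the 4 libraries pooled. In the pool Xcl1 goes from 139 to 974 and Cd8b1 from 1692 to 395.

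Detection of Cd8b1 divided the members. CD8 is a dimer, an alpha-beta pair on conventional CD8 T cells and a pair of alpha chains on many intraepithelial and other unconventional T cells, and Cd8b1 encodes the beta chain (chr6:71322788-71337494, plus strand). Cd8b1 was undetected in 39.7% of GS members, 37.9% of URI, 25.2% of WT replicate 1 and 35.3% of WT replicate 2, which was 128 of 369 in all (34.7%). In Ly49-negative cells it was undetected in 8.97%, 6.54%, 4.14% and 7.03% (111 of 1666, 6.66%). Cd8a was undetected in 11.7% of members and 17.2% of Ly49-negative cells. The rule asked for a UMI of either gene, so every Cd8b1-undetected cell had Cd8a. This lowers the Cd8a-undetected share more in the members, and nothing is read from that difference. Members without Cd8b1 had slightly fewer UMIs, a median of 5397.5 against 6238 in members with it. Doublets were 1 of 58, 1 of 36, 0 of 28 and 0 of 6 Cd8b1-undetected members in GS, URI, WT replicate 1 and WT replicate 2, against 12 of 88, 13 of 59, 13 of 83 and 0 of 11 Cd8b1-detected members. Cd8a and Cd8b1 served the rule, so this split is a description.

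Members without a Cd8b1 UMI were then compared with members that had one, over the 4 libraries, in the same kind of fit. Of 6224 genes tested, 57 were higher in the Cd8b1-undetected cells (0.916%) and 42 lower (0.675%), together 1.59%. Ccr7 had 25.9, 15.5, 52.3 and 0 CPM in Cd8b1-undetected members of GS, URI, WT replicate 1 and WT replicate 2, against 241, 223, 415 and 408 in Cd8b1-detected members. The groups lay far apart, with a log2 difference of -3.39 ± 0.27 (adjusted p = 2.83e-09). Il6ra had 2 UMIs over all Cd8b1-undetected members and 147 over the Cd8b1-detected ones, a ratio of 0.0308 after scaling to each side's total (exact interval 0.0037 to 0.113, counting error only). Xcl1 had 1439, 977, 941 and 1386, against 486, 322, 288 and 116, a difference of 1.80 ± 0.18 (adjusted p = 2.70e-07). Gzmb had 2204, 1046, 2091 and 5222, against 736, 640.1, 526 and 291 (1.85 ± 0.25, adjusted p = 2.74e-05).

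Residency genes were higher in the Cd8b1-undetected members, 5 of 11 tested, and recirculation genes lower, 4 of 8. Itga1 rose by 1.68 ± 0.23, Rgs1 by 1.56 ± 0.18 and Zfp683 by 1.35 ± 0.16, and Zfp683 stood at 719, 368, 470.4 and 559.5 CPM, against 336, 115, 211 and 136. The transcription factors Lef1 and Satb1, of naive-like T cells, were lower by -0.98 ± 0.16 and -0.89 ± 0.16, and Ikzf2 was higher by 1.25 ± 0.19 (adjusted p = 0.000124), in 3 of 4 libraries. In cells thinned to 1000 UMIs Ikzf2 was at 0.84 (adjusted p = 0.22), and by DESeq2 at 1.13 (adjusted p = 0.10). Of 17 T cell receptor signalling genes, 5 were lower, led by Themis at -1.83 ± 0.24. Cd200r1, an inhibitory receptor, was higher by 2.14 ± 0.36. Cd160 was higher by 0.97 ± 0.17, and Tcrg-C2 by 1.94 ± 0.27. Satb1 and Cd160 lost their calls without GS replicate 1, at -0.75 and 0.77.
Of 15 other NK receptors tested, 5 were higher in the Cd8b1-undetected members and 1 lower. Klrb1c had 246, 271, 164 and 133 CPM, against 103, 149.97, 77.5 and 38.8 in Cd8b1-detected members, a difference of 1.09 ± 0.20. Cd244a was higher by 0.99 ± 0.21. Without GS replicate 1, Klrb1c was at 0.98 and Cd244a at 0.40, and neither passed. Ncr1 was the receptor that was lower, by -1.41 ± 0.35, and Prf1, of the cytotoxic genes, was lower by -1.36 ± 0.30. Both calls were lost without URI replicate 1, at -0.70 and -0.53, and without WT replicate 1, at -1.39 and -1.45, and without doublets they were at -0.05 (adjusted p = 1.00) and -0.50 (adjusted p = 0.71).

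**Figure D5:**
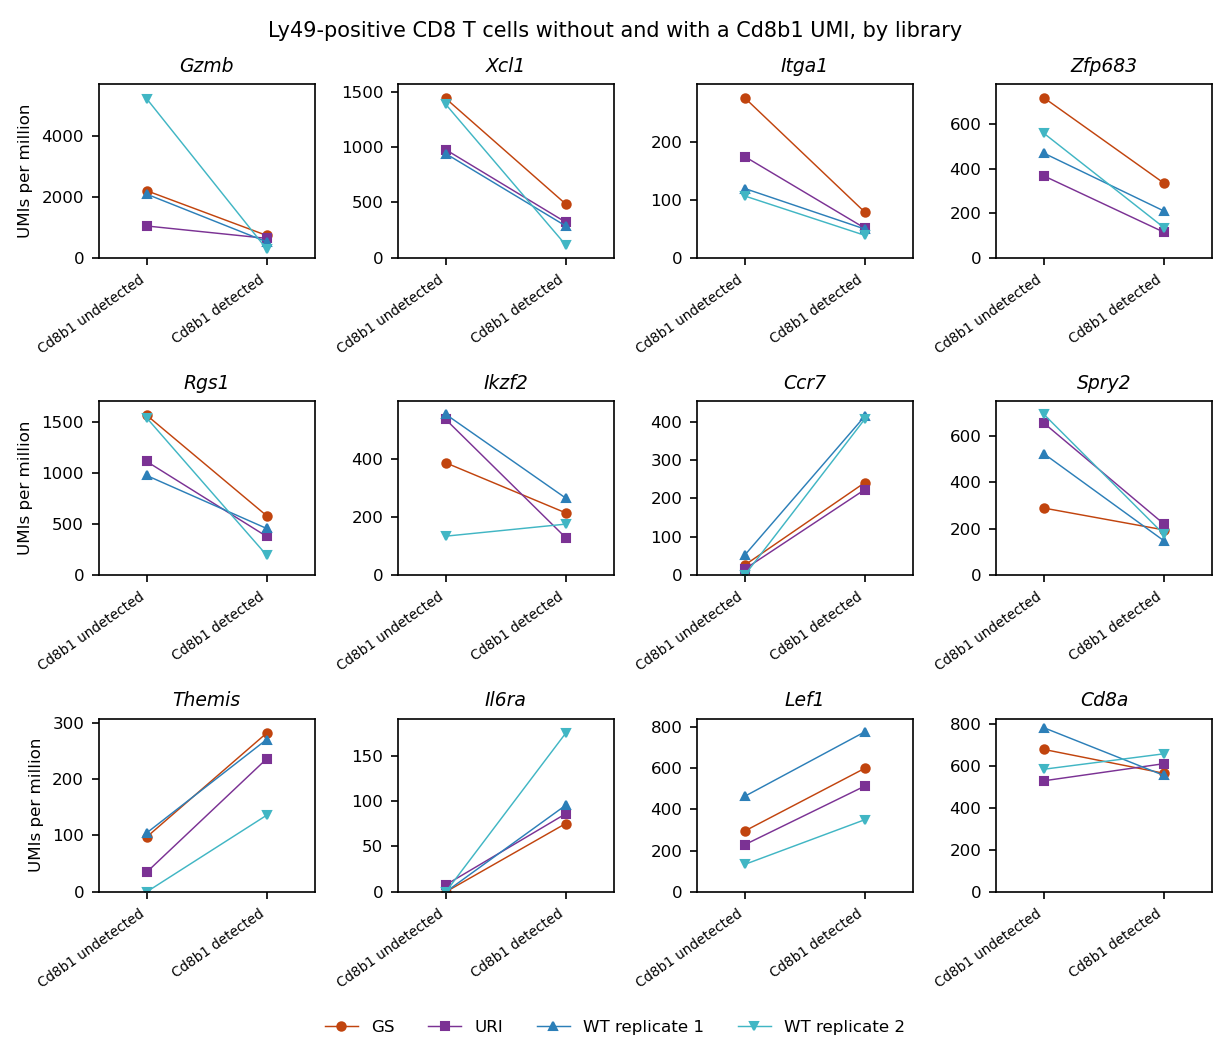
CPM of 12 genes in Cd8b1-undetected (left) and Cd8b1-detected (right) Ly49-positive CD8 T cells, with 1 line per library. Ccr7 lies at 0 to 52.3 on the left and at 223 to 415 on the right, and Xcl1 at 941 to 1439 on the left and at 116 to 486 on the right.

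Since Cd8b1-undetected cells were more common among the members, the comparison with Ly49-negative cells was repeated within each class, an alternative chosen after seeing the data. With Cd8b1-detected cells on both sides, 132 genes passed, 131 of them also among the 389 called in all cells. With Cd8b1-undetected cells on both sides, 25 genes passed, 7 of them shared. There, Xcl1 was at 0.63 (adjusted p = 0.19), Fcer1g at 0.55 (adjusted p = 0.21), Cd244a at 0.57 (adjusted p = 0.54), Zfp683 at 0.12 (adjusted p = 0.93) and Il2rb at 0.36 (adjusted p = 0.42). Tyrobp, Tbx21, Irf8, Fgl2, Tnfrsf18 and Ncr1 changed sign there, at -0.29, -0.20, -0.49, -0.13, -0.42 and -0.96, as did Nfil3 at -0.14, Il7r at 0.10, S1pr1 at 0.06 and Gpr183 at 0.15, and none of these passed. Prf1 was at -1.10 there (adjusted p = 0.04). Spry2 and Cd7 passed in both classes, at 2.33 and 1.26 among Cd8b1-detected cells and at 0.91 and 0.77 among Cd8b1-undetected cells. Clnk, Myo1e, Lgals3, Slamf1 and Tspan31 passed among Cd8b1-detected cells and were too low to be tested among Cd8b1-undetected cells. Gzmb, at 0.45, and Cd69, at 0.16, did not pass among Cd8b1-detected cells.

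The members were next compared with gamma-delta T cells, which were chosen by Trdc. Of 8453 genes tested, 84 were higher in the members (0.994%) and 122 lower (1.44%), together 2.44%. Of 19 other NK receptors 2 were lower in members and the rest did not pass. Xcl1 averaged 607 ± 169 CPM in members and 583 ± 142 in gamma-delta T cells (log2 difference 0.05, adjusted p = 0.92), and Fcer1g 686 ± 103 and 582 ± 63.8 (0.25, adjusted p = 0.16). Those values do not show that the levels are equal. Among members with a Ly49 sum of at least 2, both were above gamma-delta T cells, at 0.39 (adjusted p = 0.026) and 0.51 (adjusted p = 0.0013), and among members with no Ncr1 or Klrb1c UMI both were below them, at -0.60 (adjusted p = 0.0066) and -0.82 (adjusted p = 0.0054), with no cells left out of the gamma-delta set. Of the lineage factors, 9 of 35 tested were lower and 2 higher. Maf, a factor of interleukin-17-producing cells, had 21.6, 26.1, 31.4 and 22.5 in members, against 199, 176, 127 and 345 in gamma-delta T cells (-2.76 ± 0.18, adjusted p = 2.13e-07). Zbtb16 was lower by -2.01 ± 0.18 and Id2 by -1.05 ± 0.10. Sox13 had no UMI in members and 241 in gamma-delta T cells, at least 29.4-fold lower with the limit of 3 counts over all members, and Blk, a kinase of B cells and interleukin-17-producing gamma-delta T cells, had 1 UMI against 594.

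The members were higher than gamma-delta T cells in 4 of 12 virtual memory genes, among them Ly6c2 by 1.041 ± 0.10, Ly6c1 by 0.99 ± 0.10 and Eomes by 0.79 ± 0.13. Residency genes were lower in 5 of 15, among them Cxcr6, which retains lymphocytes in the liver, at 139.7 ± 74.0 against 322 ± 74.5 (-1.08 ± 0.15, adjusted p = 0.000483), Itgae by -1.40 ± 0.21 and P2rx7 by -1.35 ± 0.19. Cd69 was higher by 0.61 ± 0.12. Trac was higher by 2.24 ± 0.11 and Tcrg-C4 lower by -2.22 ± 0.09, both close to the genes that defined the sets. Other named differences were the integrin chain Itgad, higher by 1.74 ± 0.32, Cxcr5, a receptor for B cell follicles, higher by 1.599 ± 0.29, and Itgb3, lower by -2.81 ± 0.24. Cxcr5 was at 1.49 without WT replicate 1 (adjusted p = 0.12).

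Compared with NK cells, the members differed in 2644 of 8748 genes (30.2%), with 1346 higher (15.4%) and 1298 lower (14.8%). Of 5 Ly49 genes tested, the activating Klra4 and Klra8 were lower in members, at 50.6 ± 46.7 and 27.9 ± 22.1 CPM against 821 ± 258 and 414 ± 77.9, as were Klra9 and Klra3. Klra5, close in sequence to the selecting Klra6, was at 33.2 ± 17.0 against 8.47 ± 5.55 and is given without a test. Of 14 cytotoxic genes, 9 were lower, among them Gzma at 789 ± 272 against 6948 ± 2185 (-3.20 ± 0.14) and Prf1 at 180.1 ± 81.7 against 1747 ± 173 (-3.24 ± 0.14), and Tnfsf10 (TRAIL) was higher by 2.12 ± 0.19. Zfp683, Cxcr6, Itga1 and Cd69 were higher by 2.43 ± 0.12, 2.93 ± 0.24, 2.42 ± 0.22 and 1.69 ± 0.11, while Eomes, Tbx21 and Zeb2 were lower by -2.29 ± 0.11, -1.34 ± 0.10 and -3.16 ± 0.12. Of 17 T cell receptor genes, 15 were higher, which is close to how the sets were chosen.

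The last question is whether the genotype changed the members. Each library's members were summed, and GS and URI were compared with the 2 WT libraries with 1 residual degree of freedom. At an adjusted p under 0.05, 7 of 8765 genes passed for GS against WT (0.0799%), 14 for URI against WT (0.16%) and 5 for GS against URI (0.057%). Unadjusted p under 0.05 was reached by 86, 102 and 108 genes, and DESeq2 called 0 genes in each comparison, with 9, 14 and 9 at an unadjusted p under 0.05. GS and URI have 1 library each, so for them the genotype and the library cannot be told apart.

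Several called genes were those of other cells. A UMI of S100a8, S100a9, Lyz2 or Retnlg, genes of neutrophils and other myeloid cells, was present in 88 of 146 GS members and 91 of 95 URI members, against 52 of 111 and 14 of 17 members of WT replicates 1 and 2. Most of the UMIs of some called genes were in 1 member. For GS against WT, the myeloid genes Lyz2, Apoe and Chil3 were lower, at 12.5, 5.68 and 2.27 CPM in GS, against 207 and 101, 137 and 44.9, and 108 and 11.2 in WT replicates 1 and 2. In WT replicate 1, 119 of the 132 Lyz2 UMIs, 82 of the 87 Apoe UMIs and 63 of the 69 Chil3 UMIs were in 1 cell each. Igha was lower as well, at 4.54 in GS against 92.6 and 22.5 in WT. For URI against WT, neutrophil genes led the rises: Il1b was at 355 in URI against 31.4 and 11.2 in WT, Mmp9 at 130.5 against 6.28 and 0, and Lilr4b at 98.2 against 6.28 and 11.2. In URI, 67 of the 105 Mmp9 UMIs and 93 of the 286 Il1b UMIs were in 1 member each. S100a8 was seen in 56 URI members, and 995 of its 1358 UMIs were in 1 of them. Cxcl2 was higher in both, at 52.3 in GS and 154 in URI, against 3.14 and 0 in WT. Its UMIs came from 10 GS and 8 URI members, and 28 of 46 and 51 of 124 were in 1 member each. In Ly49-negative cells it was at 42.1 in GS, 87.2 in URI, 14.5 in WT replicate 1 and 138.9 in WT replicate 2. Leaving out members with an S100a8, S100a9, Lyz2 or Retnlg UMI kept 58 GS, 4 URI, 59 WT replicate 1 and 3 WT replicate 2 members, so these counts rest on few cells. There 1 gene passed for GS, which was not among the 7, 2 for URI and 0 for GS against URI.

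Eif2s3y, a Y-linked gene, was at 109 CPM in GS, 127 in URI, 1.57 in WT replicate 1 and 56.1 in WT replicate 2, which is the order of the summed Y-linked genes given above. Trbv17 was at 119 in GS against 17.3 and 0 in WT, and its 105 GS UMIs came from 6 members. Between GS and URI, Trbv13-1 was at 53.4 in GS, from 10 members, and at 1.24 in URI, from 1 member, while Ngp, Slfn4, Lcn2 and Il1b, genes of neutrophils, were lower in GS. Ngp was at 3.41 in GS and 117 in URI, where 77 of its 94 UMIs were in 1 member, as were 51 of the 69 Lcn2 UMIs. Of the 23 gene lists, the beta V segments and the Y-linked genes were the ones with a gene called between genotypes.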

How the data were processed

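CD45-positive cells sorted from mouse liver were profiled with 10x fixed RNA probes in 4 multiplexed libraries. The deposited matrices hold UMI counts per gene and barcode as the authors made them, with Cell Ranger 8.0.0 and mm10 per the submitters' processing notes. All 1327500 barcodes listed were filtered here as the report states. Doublets were called with Scrublet (scanpy 1.11.5, expected rate 0.1) and kept in the main analysis. Counts were summed per library and cell set and tested with edgeR 4.0.16 (TMM, filterByExpr, quasi-likelihood test, Benjamini-Hochberg adjustment, threshold 0.05) in R 4.3.3, with the library as a block between cell sets. Levels are CPM of the summed counts. On simulated counts with 200 genes changed 4-fold, the fit of Ly49-positive against Ly49-negative cells recovered 200, with 12 false calls among 8508 genes. The simulation gave all libraries the same gene proportions and a fixed spread, and changed only genes at 20 CPM or more. It therefore checks that the fit runs and does not give the error rates in the real libraries. Fold changes of genes in the selection were not tested.

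Genes were named if among the 15 largest rises or falls that passed, averaging 20 CPM or more and moving alike in 4 libraries. Between genotypes up to 5 rises and 5 falls were named, with a level outside both WT values, and for lists up to 6 members with the smallest p. Further list members, Prf1 and Tnf among them, were named after their values were seen. The members and lists were chosen with earlier results of these data known.

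Alternatives were DESeq2 1.42.0, library totals in place of TMM, no filter, no library block, 1000 UMIs as a minimum or as a thinned depth, Trdc at 0, a Ly49 sum of at least 2, no doublets, no cells with an Ncr1 or Klrb1c UMI, and each library left out. Those chosen after seeing the data were the split by Cd8b1, members without myeloid UMIs, and shares with the rule applied again to thinned cells of the sets. Intervals are exact Clopper-Pearson intervals at 95%. A few genes counted in the lists are not reported here.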

Additional observations from a re-analysis of the deposited data

How the results depend on the processing

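No paired analysis was possible because GS and URI have 1 library each and share fewer than 2 replicate numbers with WT. Leaving out either WT library left no residual degrees of freedom between genotypes, so those fits were not run. Counts of called genes moved as follows, against 389 genes for Ly49-positive over Ly49-negative cells, 206 over gamma-delta T cells, 2644 over NK cells, 99 for Cd8b1-undetected over Cd8b1-detected members, and 7, 14 and 5 for GS over WT, URI over WT and GS over URI. DESeq2 gave 223, 122, and 34 for the Cd8b1 split, and 0, 0 and 0 between genotypes. Cells thinned to 1000 UMIs gave 72, 65, 1014 and 15, and 1, 1 and 0 between genotypes. Without a library block it was 68, 26, 1625 and 25. With no filter on low counts it was 395 over gamma-delta T cells and 159 for the Cd8b1 split. With a Ly49 sum of at least 2 it was 39 for the Cd8b1 split, and 3, 6 and 0 between genotypes. Without cells that had an Ncr1 or Klrb1c UMI it was 173 over Ly49-negative cells, 338 over gamma-delta T cells, from which no such cells were removed, 27 for the Cd8b1 split, and 0, 0 and 0 between genotypes. Without doublets it was 2 for GS over WT and 9 for GS over URI. Without members with myeloid UMIs, which left 58 GS, 4 URI, 59 WT replicate 1 and 3 WT replicate 2 members, it was 1, 2 and 0 between genotypes. Leaving out 1 library gave 194 to 344 over Ly49-negative cells, 129 to 210 genes over gamma-delta T cells, 1995 to 2670 over NK cells, and 45 to 124 for the Cd8b1 split. With Cd8b1-detected cells on both sides 132 genes passed, and with Cd8b1-undetected cells 25. The causes were not tested.

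The share of members among all kept barcodes was 0.276 percentage points above the WT mean in URI, with a range of -0.264 to 0.816 when a WT library was left out. With the rule applied again to thinned cells of the sets the difference was 0.327 for GS and -0.0272 for URI. Among single genes, 3202 of the recomputed values kept direction and side of the threshold, 686 fell below it, 17 passed it newly and 21 changed sign. Over gamma-delta T cells, Xcl1 and Fcer1g changed sign without Ncr1 or Klrb1c UMIs (-0.60 and -0.82), and Xcl1 ranged from -0.024 to 0.17 when 1 library was left out. Over Ly49-negative cells, Ccl4 changed sign without Ncr1 or Klrb1c UMIs (-0.13). Prf1 did so with Trdc at 0 (-0.018), thinned cells (-0.24), without Ncr1 or Klrb1c UMIs (-0.77), without doublets (-0.42) and with Cd8b1-undetected cells (-1.10), and it ranged from -0.15 to 0.25 when 1 library was left out. With Cd8b1-undetected cells on both sides so did Fgl2 (-0.13), Gpr183 (0.15), Il7r (0.10), Irf8 (-0.49), Ncr1 (-0.96), Nfil3 (-0.14), S1pr1 (0.056), Tbx21 (-0.20), Tnf (-0.46), Tnfrsf18 (-0.42) and Tyrobp (-0.29). The 17 members of WT replicate 2 limit every value of that library.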
